A study of Mus musculus with 2 samples.

Results

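The genes described here encode the subunits of the receptors for glutamate and gamma-aminobutyric acid (GABA), the main excitatory and inhibitory transmitters of the brain. They were taken by name, as every gene whose single annotated symbol marks it as an AMPA, kainate, NMDA, delta or metabotropic glutamate receptor subunit or as a GABA-A or GABA-B receptor subunit. That gave 38 of the 17097 genes with a symbol of their own on the array, measured by 67 probe sets. Further genes of these families were not analysed here.

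The samples were 2 RNA preparations labelled as mouse embryonic stem (ES) cells, each hybridised to 1 Affymetrix array. Per the labels, both were C57BL/6 cells, grown without feeder cells on gelatin with serum and ESGRO, and both had been infected with a virus carrying a U6-driven hairpin and a puromycin resistance gene and kept in puromycin for 72 hours. The control KD sample is labelled as having received a scrambled hairpin and the TET2 KD sample a hairpin against Tet2, which encodes a dioxygenase of 5-methylcytosine. There was 1 array per group, so each difference below is one number without a replicate error or a test, and so few arrays limit its precision. Whether a sample came from 1 culture or several is not given in the sources used here.

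Ionotropic glutamate receptors are tetrameric cation channels that open when glutamate binds. AMPA receptors carry most fast excitatory current, NMDA receptors pass calcium and need GluN1 together with GluN2 or GluN3 subunits, and kainate receptors tune transmission. Metabotropic glutamate receptors and the GABA-B receptor act through G proteins. GABA-A receptors are pentameric chloride channels, usually alpha and beta subunits joined by a gamma or delta subunit. Their genes are best known from neurons, and several are also used by glia.

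Values are log2 signal, and each gene is read from whichever of its probe sets has the highest mean. Where a pair of values follows a gene name, the first is from the array labelled control KD and the second from the array labelled TET2 KD. A gene is called detected where it reached a floor of 2.55, the median of all values, on each array, and undetected where it was under that floor on each. Undetected means only that the signal was in the lower part of all signals, not that the RNA was absent. Signal depends on the probes as well as on the RNA, so levels are set against this floor and between the arrays, and not between genes.

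The labels were checked first on genes outside these families. Tet2 itself differed by -0.26 and -0.06 in its 2 probe sets, which is 83.7% and 96.2% of the control level, so no difference below is assigned to a loss of Tet2. Of 19 ES cell markers 12 (63.2%) were detected, close to the 64% of all genes on the array, and 7 were undetected. The defining factors Pou5f1 (1.07 and 1.29) and Nanog (1.01 and 0.97) were among the undetected. Other markers of this list read far above the floor, such as Zfp42 (10.56 and 10.58), Utf1 (9.22 and 9.22) and Sall4 (8.73 and 8.75). Of 18 neuron markers 17 were detected, as were 10 of 11 astrocyte, 12 of 13 oligodendrocyte, 4 of 11 microglia, 4 of 9 endothelial and 6 of 10 fibroblast markers. The undetected neuron marker was Snap25 (2.51 and 2.26). The myelin gene Mbp read 10.32 and 10.22. Among markers whose mean reached the floor, Klf4 (5.87 and 6.88) and the oligodendrocyte marker Opalin (4.88 and 6.01) were past 2-fold. Of all such genes, 1.17% were higher by as much. With means under the floor, the microglia marker P2ry12 read 1.03 and 3.58 and the ES cell marker Dppa3 2.08 and 0.87. Summed on the linear scale, the signal of neuron markers was 4357 and 4499, and that of ES cell markers 3893 and 3892. It was 1539 and 1515 for astrocyte, 2321 and 2193 for oligodendrocyte and 1800 and 1314 for fibroblast markers. For microglia markers it was 79 and 85, and for endothelial markers 76 and 71. Each sum is set against itself on the other array, since sums over different probe sets are not comparable with each other. The arrays also stood apart in Xist, the RNA of X inactivation (9.34 and 3.62), in the Y-linked gene Eif2s3y (0.89 and 6.14), and in the pituitary hormone genes Prl (10.66 and 4.13), Gh (10.69 and 4.603 in its highest probe set) and Pomc (8.04 and 3.35). Several of these values go against the labels, while the high ES cell markers do not. Whether the arrays hold RNA of the ES cells and knockdown that the labels name is therefore not known. Every receptor value below is given for an array as labelled. The part of other cell types in the receptor signal was not tested, and in bulk RNA fewer cells of a type and less RNA per cell cannot be told apart.

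Each receptor subunit gene had the same state on both arrays, as most genes on the array did. Of the 38, 20 (52.6%) were detected, beside 64% of all genes, and 18 were undetected. From one array to the other 0 of the 38 crossed the floor, beside 452 of all 17097 genes. All 4 AMPA subunits were detected, as were 3 of 5 kainate, 2 of 6 NMDA, 0 of 1 delta and 4 of 6 metabotropic glutamate receptor genes. Of 15 GABA-A genes 6 were, and so was the GABA-B gene measured. The share for glutamate receptors was 59.1% and for GABA receptors 43.8%, both under the share of all genes. Since the highest probe set is read, a gene with several has more chances to reach the floor. By its mean, 15 of 21 members with several reached it, as did 5919 of 7180 such genes on the array. All AMPA genes have several probe sets, while Grin2a, Grin2c, Grin2d and Grid1 have 1 each, so classes are not compared on equal terms.

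**Figure D1:**
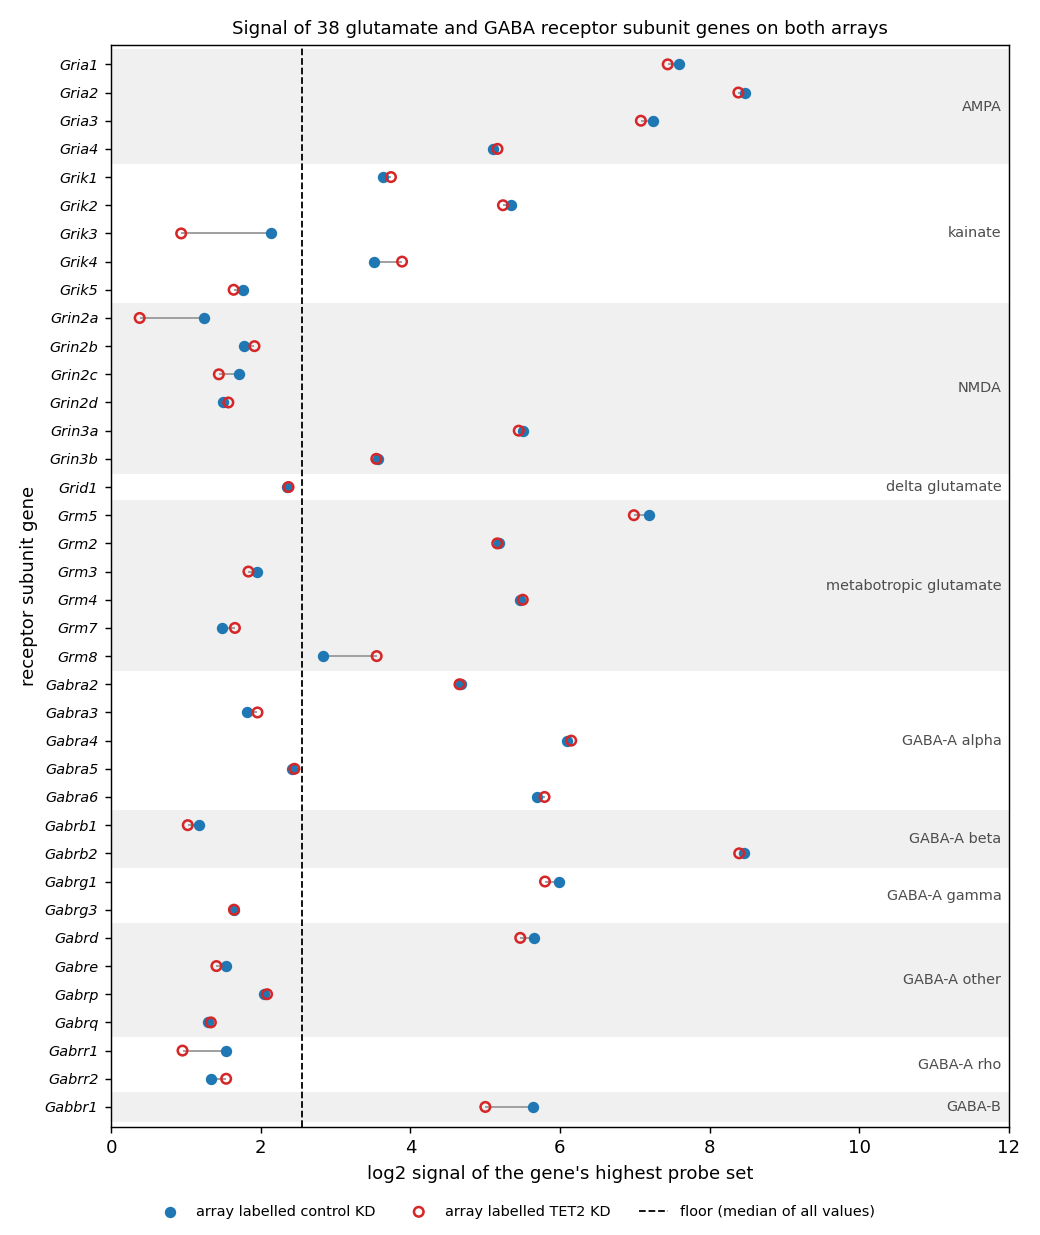
Log2 signal (horizontal axis) of the 38 receptor subunit genes (vertical axis, grouped by receptor class), with filled points for the array labelled control KD, open points for the array labelled TET2 KD and a dashed line at the floor of 2.55. Both points of 20 genes lie to the right of the line and both points of the other 18 to its left.

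To show how CG-rich the promoters are in detected and undetected members, the 250 bases upstream of the start site are printed for 4 of them. They are the glutamate-gated channel and the GABA-A genes farthest above and farthest under the floor among those with 1 listed start site. Sequences are from RefSeq, build GRCm38.p6, 5′ to 3′ on the gene's strand, and capitals mark each CG pair, the substrate site of DNA methylation in mammals. Gria2, detected, lies downstream of chr3:80802836-80803085 (minus strand) and Grin2d, undetected, downstream of chr7:45866682-45866931 (minus strand). Gabra4, detected, lies downstream of chr5:71658309-71658558 (minus strand) and Gabrr1, undetected, downstream of chr4:33132306-33132555 (plus strand).
Gria2: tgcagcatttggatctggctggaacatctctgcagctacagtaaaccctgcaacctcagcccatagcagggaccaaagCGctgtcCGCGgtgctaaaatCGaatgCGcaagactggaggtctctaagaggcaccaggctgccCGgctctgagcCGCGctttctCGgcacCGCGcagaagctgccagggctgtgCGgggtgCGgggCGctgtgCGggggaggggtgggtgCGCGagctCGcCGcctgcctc
Grin2d: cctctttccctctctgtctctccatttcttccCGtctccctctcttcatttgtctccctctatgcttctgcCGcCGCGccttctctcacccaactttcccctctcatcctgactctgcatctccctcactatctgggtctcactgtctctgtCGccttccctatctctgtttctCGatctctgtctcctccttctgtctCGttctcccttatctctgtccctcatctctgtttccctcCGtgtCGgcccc
Gabra4: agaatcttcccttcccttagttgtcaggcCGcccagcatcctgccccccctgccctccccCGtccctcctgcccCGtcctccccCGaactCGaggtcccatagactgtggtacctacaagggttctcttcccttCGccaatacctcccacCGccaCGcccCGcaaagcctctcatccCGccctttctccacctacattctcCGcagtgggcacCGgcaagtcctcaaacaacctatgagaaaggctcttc
Gabrr1: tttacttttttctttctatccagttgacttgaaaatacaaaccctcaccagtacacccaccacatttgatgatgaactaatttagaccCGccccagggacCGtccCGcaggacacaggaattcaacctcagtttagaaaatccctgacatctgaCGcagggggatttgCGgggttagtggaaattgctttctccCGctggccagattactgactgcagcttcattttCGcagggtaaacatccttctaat
These 250 bases hold 19 CG pairs in Gria2 and 9 in Grin2d, and 12 in Gabra4 and 7 in Gabrr1. The 4 genes do not stand for their groups, and other members give the reverse order. In windows of 300 bases around the start site, Grik3, undetected, had 50 CG pairs beside 26 in Gria2. Gabrg1, detected, had 3 beside 9 in Gabrr1.

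AMPA receptor genes were all detected. Gria2, whose subunit GluA2 limits the calcium permeability of the receptor, read 8.47 and 8.38, a difference of -0.09. Gria1 (GluA1) read 7.60 and 7.44, a difference of -0.16. Gria3 (GluA3) read 7.25 and 7.08, a difference of -0.17. Gria4 (GluA4) read 5.10 and 5.16, a difference of 0.06. Gria1, Gria2 and Gria3 read slightly lower on the array labelled TET2 KD, and no AMPA gene approached a 2-fold difference, which is 1 on this scale. Gria1 has a second probe set, under the floor, that read 1.62 and 0.77, a difference of -0.85.

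Kainate receptor genes were part detected and part undetected. Grik2, which encodes GluK2, read 5.35 and 5.24. Grik1 (GluK1) read 3.63 and 3.74, and Grik4, which encodes a subunit of high glutamate affinity, 3.51 and 3.89. Grik4 has 1 probe set, so its difference of 0.38 has no second reading. Grik5, the other high-affinity subunit, was under the floor at 1.76 and 1.64. Grik3 (GluK3) was under it too, at 2.14 and 0.94, so its difference of -1.20 lies wholly under the floor and was not counted.

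None of the 4 GluN2 genes was detected, while both GluN3 genes were. Grin3a, whose subunit GluN3A lowers calcium entry and is best known from the immature brain, read 5.51 and 5.45, and Grin3b read 3.56 and 3.55. Grin2a read 1.25 and 0.38, and Grin2b 1.78 and 1.92, with all 3 of its probe sets under the floor. Grin2c read 1.71 and 1.44, and Grin2d 1.502 and 1.57. GluN2 subunits bind the transmitter glutamate and GluN3 subunits bind glycine, so the measured genes under the floor are those of the glutamate-binding kind. Grin1, the gene of GluN1, is not among the 38. Grin2a, Grin2c and Grin2d have 1 probe set each, and whether this contrast lies in the probes was not tested. The probe set of Grin2c had both values in common, to the last decimal, with a probe set of Nr2e1, as did the lower probe set of Gabra3 with one of Unc5c, and how that arose is not known. Grid1, the delta receptor gene measured, was just under the floor at 2.35 and 2.37.

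Metabotropic receptor genes gave the largest positive difference. Grm5, a group I receptor that raises intracellular calcium and is used by neurons and astrocytes, read 7.19 and 6.99. Grm2, a group II presynaptic receptor that lowers cAMP, read 5.19 and 5.16, and Grm4, of group III, 5.47 and 5.50. Grm8, another group III receptor, read 2.84 and 3.55, a difference of 0.71 or 1.64-fold, with the lower value close to the floor. It has 1 probe set, so no second reading of this difference exists. Grm3 (1.95 and 1.84), a receptor best known from astrocytes, and Grm7 (1.49 and 1.66) were undetected.

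GABA-A receptor genes were mostly under the floor, though each main kind of subunit had a member above it. Among alpha subunits, which with beta subunits form the GABA site, Gabra4 read 6.09 and 6.15, Gabra6, best known from cerebellar granule cells, 5.69 and 5.79, and Gabra2 4.67 and 4.66. Gabra5 was just under the floor at 2.41 and 2.45, and Gabra3 was under it at 1.82 and 1.96. Of beta subunits, Gabrb2 read 8.46 and 8.39, while Gabrb1 read 1.18 and 1.03. Of gamma subunits, Gabrg1 read 5.98 and 5.80 and Gabrg3 1.64 and 1.64. Gabrd, the delta subunit of receptors outside synapses, read 5.66 and 5.47.

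The rarer GABA-A subunits were all under the floor. Gabre (epsilon) read 1.54 and 1.41, Gabrp (pi) 2.04 and 2.09 and Gabrq (theta) 1.29 and 1.33. The rho subunits, best known from the retina, read 1.53 and 0.96 in Gabrr1 and 1.34 and 1.54 in Gabrr2. Gabbr1, which carries the GABA site of the metabotropic GABA-B receptor, was detected at 5.64 and 5.002. Its difference of -0.64, or 1.55-fold, was the largest negative one among detected members. A second Gabbr1 probe set that passed the floor read 4.97 and 4.99, a difference of 0.01, so the lower reading was not shared within the gene.

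No detected member differed by 2-fold or more between the arrays. The counts were 0 of 20 higher and 0 of 20 lower on the array labelled TET2 KD, where among all genes whose mean reached the floor 1.17% were higher and 1.41% lower. At 1.5-fold, 1 member was higher (Grm8) and 1 lower (Gabbr1), beside 1.78% and 5.42% of all genes. The median difference of the 20 was -0.04 and that of all genes -0.01. Of the 20, 13 (65%) were below 0, beside 52.1% of all genes. That number was 11 (beside 46.4%) with each array centred on its median and 10 (beside 45.5%) after quantile normalization. Of the 20, 17 (85%) differed by less than 0.25, beside 81.4%.

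**Figure D2:**
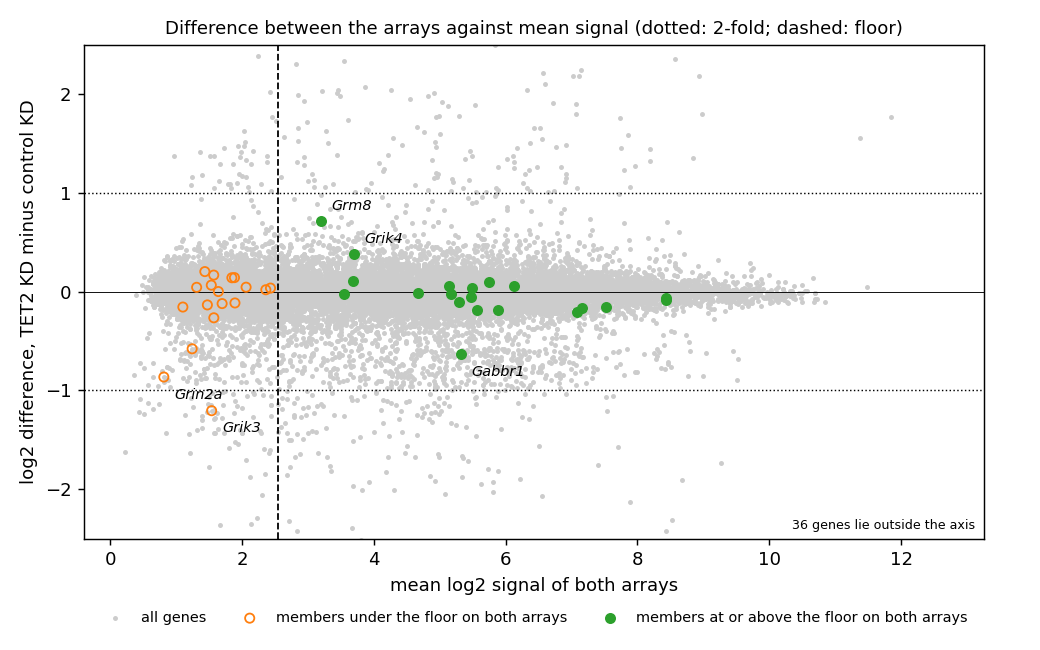
Log2 difference, TET2 KD minus control KD (vertical axis), against the mean log2 signal of both arrays (horizontal axis) for all genes in grey, detected members in filled green and undetected members in open orange; dotted lines mark 2-fold and the dashed line the floor. The filled points lie between -0.64 (Gabbr1) and 0.71 (Grm8), inside both dotted lines; 36 genes lie outside the axis.

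Under the floor, values on the array labelled TET2 KD reached lower than those on the array labelled control KD. The 18 members ran from 1.18 to 2.41 on the array labelled control KD and from 0.38 to 2.45 on the array labelled TET2 KD. Their differences ran from -1.20 for Grik3 to 0.20 for Gabrr2, with a median of 0.01. Next to Grik3 stood Grin2a (-0.86) and Gabrr1 (-0.58). Grik3 is the 1 member of 18 past 2-fold here, where 57 of 5709 undetected genes (0.998%) were, 40 of them lower.

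Probe sets of the same gene often fell on opposite sides of the floor. Of the 21 members with several probe sets, 15 had 1 or more with a mean that reached the floor, and in 10 of these (66.7%) another probe set had a mean under it, beside 60.3% of all such genes. Gabrb2 had 3 probe sets over the floor, with means of 8.43, 7.52 and 7.51, and 2 under it, at 2.20 and 1.58. Gria1 had 1 over the floor, with a mean of 7.52, and 1 under it, at 1.19. All 3 probe sets of Gria2 were over the floor, with means of 8.43, 6.82 and 3.70, and Gria3, Gabra2, Gabra4 and Gabrg1 had both of theirs. A gene counted as under the floor was so in all its probe sets, since the highest one was read. Where the probes lie on each transcript was not analysed here.

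**Figure D3:**
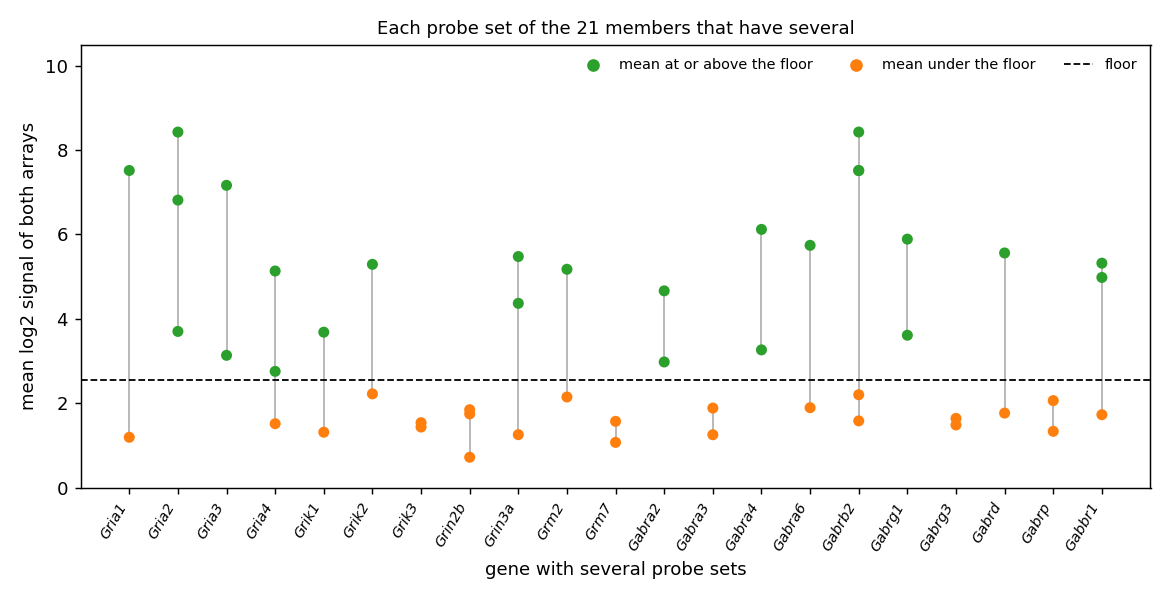
Mean log2 signal of both arrays (vertical axis) for every probe set of the 21 members with several (horizontal axis), green where it reached the floor and orange where it did not, with a line joining the probe sets of a gene and a dashed line at the floor. In 10 genes, Gria1 and Gabrb2 among them, the line crosses the floor.

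Beside that spread within genes stood small differences between the arrays. The median size of the array difference over the 31 detected member probe sets was 0.11, and the largest was 0.71. Members with several probe sets spanned a median of 3.03 between their highest and lowest, and 11 of them (52.4%) spanned more than 3, beside 38.2% of all genes with several. Of 9 members with 2 or more detected probe sets, 6 had differences of 1 sign. These were Gria2 (-0.23 to -0.09), Gria4 (0.06 to 0.22), Grin3a, Gabra4, Gabrb2 and Gabrg1. In Gabbr1, Gabra2 and Gria3 the signs were mixed, with Gabra2 at -0.01 and 0.54. The same count over all genes was not made, so 6 of 9 is not read as a trait of these genes. Grik1 differed by 0.11 in its counted probe set and by -1.22 in one under the floor.

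Many GABA-A genes sit side by side in the genome, and by RefSeq gene order (GRCm38.p6) neighbours (0 or 1 other coding gene between them) did not always share a state. In the cluster of Gabrg1, Gabra2, Gabra4 and Gabrb1, the first 3 were detected and Gabrb1 was not. Gabrb1 has 1 probe set and the first 3 have 2 each, and whether this contrast lies in the probes was not tested. Gabra6 and Gabrb2, next to each other in another cluster, were both detected. Gabrg3 and Gabra5, neighbours as well, were both undetected, as were the cluster of Gabre, Gabra3 and Gabrq and the pair Gabrr1 and Gabrr2, which adjoin each other. The cluster of Gabrg1 was the one of these with genes in both states.

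Promoters rich and poor in CG pairs were found among both detected and undetected receptor genes. Promoter windows at RefSeq start sites, from 250 bases before to 50 after the start, were available here for 28 of the 38 members. Genes with several start sites were given the mean. The 13 detected members had a median of 17 CG pairs per window and the 15 undetected ones 12.5. Over all genes with a window, the medians were 21 for the 8834 detected genes and 6 for the other 4771, and the gap between these pairs of medians was not tested. Grik3, undetected, had 50 pairs, and Gabra6 and Gabrg1, both detected, had 2 and 3. The motif TATAAA, searched on both strands, was in the windows of 3 of 28 members (10.7%), beside 11.8% of all genes, and GGGCGG, which itself holds a CG pair, in 16 (57.1%), beside 57.3%.

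**Figure D4:**
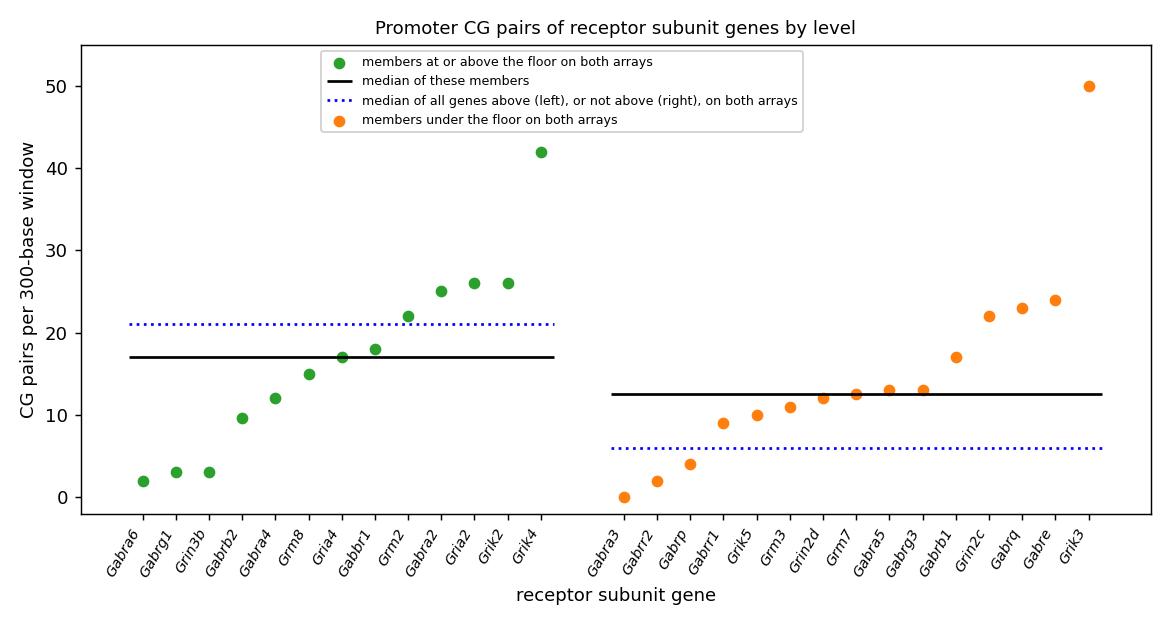
Number of CG pairs in the promoter window (vertical axis; windows of 300 bases, mean over start sites) for the 28 receptor subunit genes with a window (horizontal axis), 13 detected ones on the left and 15 undetected ones on the right; black lines are medians of these members (17 and 12.5) and blue dotted lines medians of all detected genes (21) and of the others (6). The black lines lie closer together than the blue ones.

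Most genes for proteins that anchor and traffic these receptors were detected. Of 37 partner and scaffold genes measured, 28 (75.7%) were, beside 64% of all genes. Of those whose mean reached the floor, 0 were past 2-fold, beside 1.17% higher and 1.41% lower of all genes. Their median difference was 0.05 and their mean difference -0.03, so the sign depends on the summary. Well above the floor were Gabarap (8.66 and 8.66) and Gabarapl1 (8.02 and 8.02), of the family named after the GABA-A receptor, Nsf, a vesicle fusion ATPase that binds GluA2 (8.55 and 8.61), and the scaffold Dlgap1 (7.87 and 7.79). Cacng2, stargazin, an auxiliary subunit of AMPA receptors, read 6.29 and 6.33, and Gphn, gephyrin, which anchors GABA-A and glycine receptors, 4.99 and 4.94. Other probe sets did not all give the same reading. The mean difference over all probe sets was -0.41 in Cacng2 (2 probe sets), beside 0.04 in the one read. In Dlgap1 (5 probe sets) it was -0.31, beside -0.09. In Nsf and Gabarapl1 it was 0.02 and -0.02. Among the detected genes of this list, the largest differences were those of Pick1, which binds GluA2 (5.82 and 4.99, -0.84), Dlg1 (-0.48) and Dlg3 (-0.29). Pick1 has 1 probe set. Under the floor, Cacng3, another relative of stargazin, read 1.13 and -0.10, a difference of -1.23 that was not counted.

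Genes that make, pack and take up the transmitters were detected in 14 of 24 cases (58.3%), beside 64% of all genes. Both enzymes that make GABA were, with Gad1 at 5.44 and 5.62 and Gad2 at 6.26 and 6.44. Slc32a1, the vesicular GABA transporter, was just under the floor at 2.44 and 2.49. Slc17a6, a vesicular glutamate transporter, read 5.90 and 6.09, while its relative Slc17a7 was under the floor at 2.17 and 2.24. Well above the floor were the glutamate dehydrogenase Glud1 (9.60 and 9.52), the amino acid transporters Slc38a2 (9.16 and 9.17) and Slc38a1, and the chloride importer Slc12a2 (8.23 and 8.14). Slc38a1, at 8.16 and 7.11, was the 1 gene of this list past 2-fold, beside 1.41% of all genes lower by as much, with a difference of -1.06 that was -0.51 in the mean of its 2 probe sets. Other differences among the detected genes were smaller, such as Abat (-0.27), the enzyme that breaks down GABA, and the glutamate transporter Slc1a1 (0.26). The median difference of the genes whose mean reached the floor was -0.03.

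Few of the other ligand-gated channel genes were detected. Of 29 subunit genes of nicotinic, glycine, serotonin and purine receptors, 5 (17.2%) were, beside 64% of all genes and 20 of 38 (52.6%) for glutamate and GABA receptors. They were Glrb, the glycine receptor beta subunit that binds gephyrin (7.96 and 7.97), the nicotinic subunits Chrnb1 (4.63 and 5.33) and Chrna9 (4.43 and 4.70), and the purine receptors P2rx4 (4.93 and 4.13) and P2rx5 (3.24 and 3.23). None was past 2-fold, beside 1.17% higher and 1.41% lower of all genes, with P2rx4 at -0.79, Chrnb1 at 0.70 and Chrna9 at 0.27 the largest in size. The median difference of the 5 was 0.01.

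**Figure D5:**
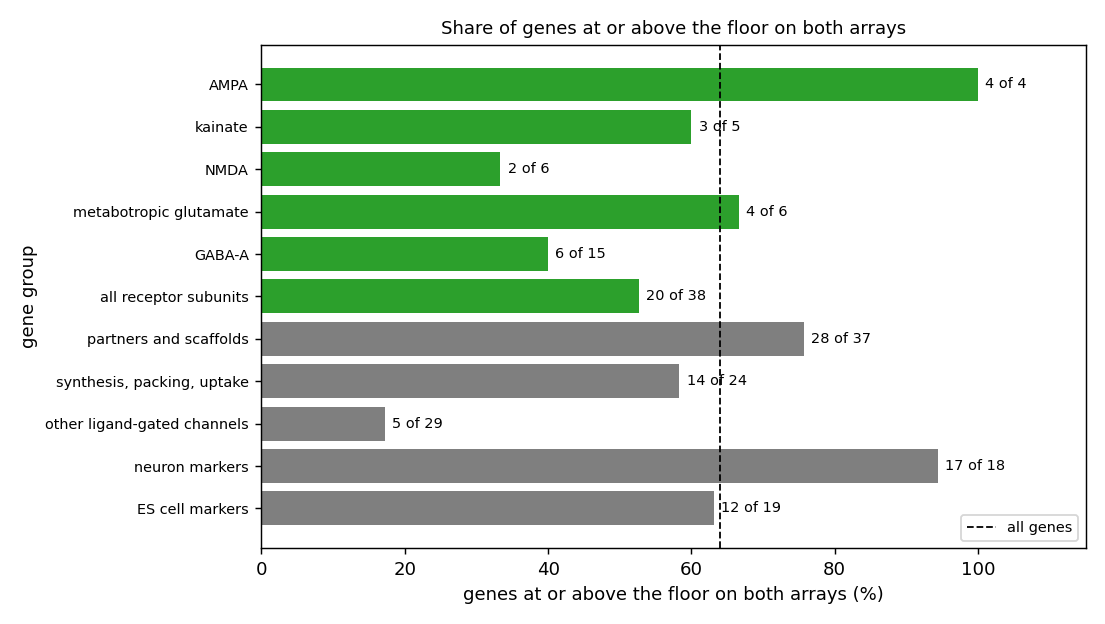
Share of detected genes (horizontal axis, percent), as bars from 0 for receptor classes in green and for comparison lists in grey (vertical axis), with the number of genes beside each bar and a dashed line at the share of all genes, 64%. AMPA (4 of 4) and metabotropic glutamate receptor genes (4 of 6), partners and scaffolds (28 of 37) and neuron markers (17 of 18) reach past the line. All other bars stop short of it, those of NMDA genes (2 of 6) and other ligand-gated channels (5 of 29) by the most.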

How the data were processed

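Total RNA, 2 µg per sample, was copied with an oligo(dT) primer carrying a T7 promoter and made into biotin-labelled cRNA, per the labels' protocols. The values are log2 signal for each probe set as the authors deposited it. The submitters' processing notes name Affymetrix Expression Console. Which version, summary method and normalization were used is not given in the sources used here, and the log base was read from the range of values. Scanner files were not used here, so the match of values to probe set names was taken as deposited.

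Of 45037 probe sets other than controls, 28898 carry 1 gene symbol in the platform annotation, 551 several and 15588 none, and only the first were named. A gene was its probe set with the highest mean. Differences are TET2 KD minus control KD, counted at 2-fold among the 11174 genes whose mean reached the floor. With 1 array per group no test was run. All members are named, with both values, and of each pathway list the 4 highest, the 3 with the largest differences and those past 2-fold. Cacng2, Gphn, Gad1, Gad2, Slc32a1, Slc17a6 and Slc17a7 were named after their values were seen. The members and lists were chosen with earlier results of these data known. The counting past 2-fold was checked on simulated data with no floor set. The counts of detected genes and the choice of probe set were not checked in this way. Python 3.11.15, numpy 2.4.6, pandas 2.3.3 and matplotlib 3.10.9 were used.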

Additional observations from a re-analysis of the deposited data

How the results depend on the processing

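The number of detected receptor subunit genes was 20 with either other scaling of the arrays, 19 in the mean or median of a gene's probe sets, 29 when the 25th percentile served as the floor and 15 when the 75th did. The matching shares of all genes were not counted, so whether the members stay under them is not known. Their median difference stayed between -0.088 and -0.011 over all alternatives. When the 25th percentile served as the floor, 1 member (Grik3) was lower by 2-fold or more and the largest size of a difference was 1.20. With no floor, 1 was lower as well. The shares of all genes past 2-fold under these settings were not counted. At 1.5-fold, 1 member was higher and 1 lower, 1 partner or scaffold gene was lower, and 1 other ligand-gated channel was higher and 1 lower. The call of Slc38a1 was lost, leaving 0 genes of its list, in the mean and the median of probe sets and without probe sets marked _x_ or _s_. The median of other ligand-gated channels was 0.355 with the floor at the 75th percentile, where fewer of its genes count. Gabbr1 differed by -0.21 in the mean and 0.01 in the median of its probe sets, Gria1 by -0.50 in both, Grik1 by -0.55 in both, and Gabra2 by 0.27 in both. The median difference of partner and scaffold genes turned from 0.05 to -0.04 in the mean and the median of probe sets, that of transmitter genes from -0.03 to 0.02 when the 25th percentile served as the floor and without probe sets marked _x_ or _s_, and that of other ligand-gated channels from 0.01 to -0.0028 in the mean of probe sets. Signs of Gabra2, Grin3b and Grm2, all within 0.03 of 0, turned under 1 or both of the other scalings. The causes were not tested beyond what each alternative changes. No paired analysis was possible because each group has 1 array, and no array could be left out for the same reason. Signal near or under the floor limits the readings of Grm8 and of the members counted as under it.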
